A study of Mus musculus with 78 samples.

Results

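The livers compared here came from male B6C3F1 mice that drank dichloroacetic acid (DCA) for 10 weeks and then plain water for 22 weeks, a group named S1-32, and from age-matched water controls, named Control-32. The members are the libraries with these labels that are also columns of the authors' normalized count table: 6 of S1-32 (mice 19 to 24) and 6 of Control-32 (mice 73 to 78), 12 of the 78 libraries in the series, of which that table holds 68. The study asked which liver expression changes outlast exposure to DCA, a by-product of water chlorination that causes liver tumours in mice. RNA in lysates of archived, formalin-fixed and paraffin-embedded liver was measured with TempO-Seq, in which detector oligos are ligated on their target RNA and the ligated probes are sequenced, on a mouse panel of 2755 genes. The most abundant transcripts were attenuated by the vendor to the same extent in all samples, so levels are compared between mice and not between genes. Where the most abundant gene of a list or its share of a sum is given, this refers to counts after attenuation and not to RNA.

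All groups used here are males of this hybrid strain, 4 weeks old by the labels when treatment began, and each week number counts from that start. S1-32 received DCA at 3.5 g/L in deionized water for 10 weeks and was collected at week 32. Control-32 received deionized water alone for 32 weeks. S1-10 (6 mice) received the same DCA for 10 weeks and was collected at the end of exposure, with Control-10 (4 mice) as its water controls. S1-57 (6 mice) received DCA for 10 weeks and water for 47 weeks, with Control-57 (6 mice) beside it. S2-32 (6 mice) drank DCA for all 32 weeks and shares its controls, Control-32, with S1-32. The label gives whole liver, so each value mixes all cell types of the section.

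DCA inhibits the pyruvate dehydrogenase kinases and so keeps pyruvate dehydrogenase, the gate between glycolysis and the citric acid cycle, in its active form. Hepatocytes also secrete most plasma proteins. In the acute phase response, interleukins act through STAT3, NF-kappaB and the C/EBP factors to raise serum amyloid A, haptoglobin, fibrinogen and complement. A separate circuit, run by the SREBP factors, raises sterol synthesis and uptake when sterols in the cell are low.

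Depth differed between the groups. S1-32 libraries held between 2979117 and 3914572 counts (median 3285609). Control-32 libraries held between 721372 counts in mouse 73 and 2731045 in mouse 77 (median 1987260). The totals did not overlap, and the exact permutation test of the means, 2-sided, gave p = 0.00216, the smallest its 924 splits allow, or 0.00432 adjusted over 2 measures. Genes detected averaged 2388.5 in S1-32 and 2304.67 in Control-32 (exact permutation p = 0.775), with the controls reaching from 1590 in mouse 73 to 2690 in mouse 75. The squared Spearman correlation of a library with the mean of all 78 libraries, taken across genes, ran from 0.904 to 0.921 in S1-32 and from 0.628 (mouse 75) to 0.947 (mouse 77) in Control-32. As computed here, mouse 75 lay under the limit that the study set on its own rank measure, although the authors' normalized table keeps that library. Over the 2205 genes tested, the median SD of log2 scaled counts was 0.334 in S1-32 and 1.03 in Control-32, and the SD was larger among controls for 2090 genes. Total counts and treatment cannot be told apart in this design.

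Serum amyloid A alone filled much of some S1-32 libraries. Libraries dominated by few genes were found in both groups. The 10 most abundant genes of a library together took 39.05% to 59% of its counts in S1-32 (median 46.98%). In Control-32 they took 38.34% to 61.71% (median 51.9%). Saa1 and Saa2, whose near-identical transcripts are reported together, took 37.3% of all counts in S1-32 mouse 23 (95% Wilson interval 37.24 to 37.35), 26.39% in mouse 20 (26.35 to 26.43), 17.28% in mouse 21 (17.24 to 17.32), 8.699% in mouse 24 (8.668 to 8.731) and 4.11% in mouse 22 (4.089 to 4.131). Mouse 19 stood apart with 0.198% (0.1936 to 0.2025). The highest control was mouse 77 at 0.7244% (0.7144 to 0.7345), and the next was mouse 75 at 0.06327% (0.05986 to 0.06688). These intervals cover counting error only, since probe reads carry no molecular identifiers.

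**Figure D1:**
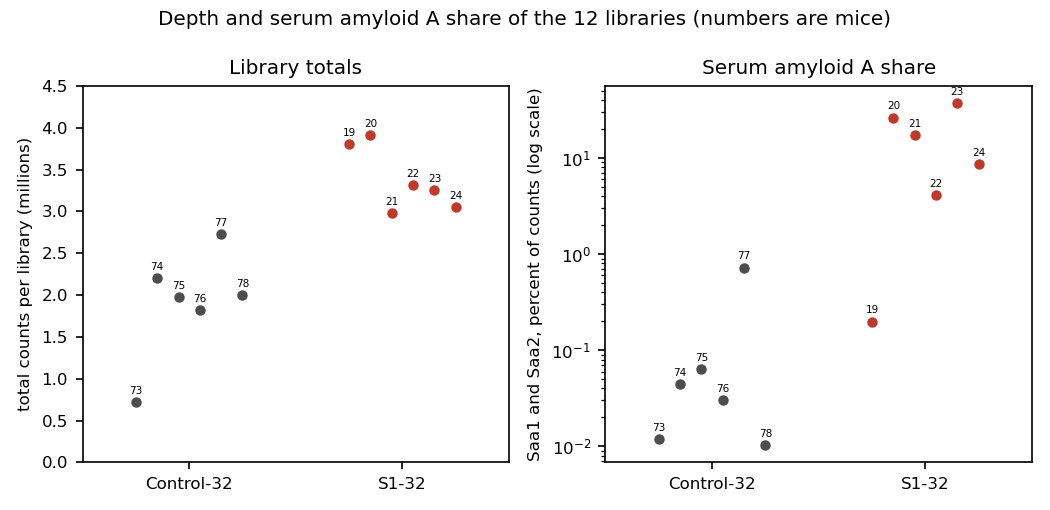
Total counts per library (left, linear axis) and the percent of counts in Saa1 and Saa2 (right, log scale), 1 point per mouse with its number. The 6 S1-32 totals lie above all 6 control totals, and 5 of the 6 S1-32 mice lie above every control in serum amyloid A share.

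The comparison asks what remains, or has appeared, 22 weeks after a 10-week exposure. At that time many plasma proteins of the acute phase, complement and coagulation, some sterol synthesis enzymes and 2 bile acid transporters were higher in S1-32, while many respiratory chain subunits and a peroxisomal thiolase were lower. Of 2205 genes tested by the edgeR quasi-likelihood test with Benjamini-Hochberg adjustment, 642 were called (29.1%), meaning that the adjusted p was at most 0.05 and the fold exceeded 1.5: 262 higher (11.9%) and 380 lower (17.2%). The median log2 fold change, S1-32 over Control-32 and so positive where S1-32 was higher, was 1.41 for genes called higher, -2.06 for genes called lower and 0.05 for all genes tested. The 6 and 6 libraries did not overlap for 221 genes (10.0%), 133 higher (6.03%) and 88 lower (3.99%), and 182 of the 221 were called.

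Which controls lay nearest to the exposed mice was uneven. Control mouse 74 was the highest control in 189 of the 262 genes called higher (72.1%) and the lowest in 217 of the 380 called lower (57.1%). Without mouse 74 the count was 887 (442 higher and 445 lower), and without mouse 75 it was 372 (119 higher and 253 lower). Among the S1-32 mice, mouse 19 was the lowest in 105 of the genes called higher (40.1%) and the highest in 149 of those called lower (39.2%); leaving out mice 19 and 75 together, a choice made after seeing the data, gave 368 (109 higher and 259 lower). Fits without 1 library at a time shared 319 called genes (101 higher and 218 lower). With all 78 libraries in the fit the count was 307 (45 higher and 262 lower), and with log2 total counts as a covariate it was 36 (14 higher and 22 lower), each of them called here as well. Upper-quartile scaling gave 194 higher and 518 lower, 27.2% of the calls higher against 40.8% under TMM. TMM, RLE and upper-quartile factors scale libraries by trimmed mean ratios, median ratios and upper quartiles. They place the median of all genes at 0.05 (TMM, used here), -0.07 (RLE) and -0.24 (upper quartile), so a list median is read against that of all genes.

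Hepatocyte markers were present in every library, as the liver label requires. The 15 marker genes on the panel summed from 72192 to 126896 CPM (median 84913) in S1-32 and from 54384 to 118633 CPM (median 85685) in Control-32 (CPM, counts scaled to library totals with TMM factors), with transthyretin (Ttr) the most abundant at 27.3% of the sum and none of the 15 at 0 in all libraries. The ranges overlapped, and among the 15 tested 2 were called higher and 1 lower (20.0%, against 29.1% of all genes; 2 higher and 1 lower under RLE, 0 and 2 under upper-quartile scaling); 11 of the 15 estimates were positive, and their median was 0.92, against 0.05 for all genes. Glul, glutamine synthetase of the hepatocytes around the central vein, ranged from 923 to 1291 CPM (median 1034) in S1-32 and from 226 to 796 CPM (median 495) in Control-32. Every S1-32 mouse exceeded every control (log2 fold change 1.08, standard error (SE) 0.43, adjusted p = 0.0484), but the call ended without mouse 19, 20, 21, 22, 23, 24, 75, 76 or 78 (adjusted p = 0.0573 to 0.127) and under upper-quartile scaling. In bulk tissue, fewer cells of a type and less RNA per cell cannot be told apart.

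Acute phase plasma proteins were higher in most S1-32 livers. Of 17 tested, 10 rose and 0 fell (58.8% called, against 29.1% of all), and the list median was 1.60 against 0.05 for all genes. The 18 list genes on the panel summed from 149252 to 722190 CPM (median 293162) in S1-32 and from 38288 to 119272 CPM (median 74569) in Control-32, and Saa1 made up 28.7% of that sum. Saa1 encodes serum amyloid A, an apolipoprotein of inflammation, and its near-identical neighbour Saa2 may share its probe signal, so the split between them is uncertain. Saa1 (chr7:46740497-46742980, GRCm38) ranged from 1729 to 319300 CPM (median 97290) in S1-32 and from 81.1 to 6935 CPM (median 242) in Control-32. Mouse 19 was the low S1-32 animal at 1729 CPM, inside the control range set by mouse 77, and the other 5 lay above every control. The fitted log2 fold change was 6.55 (SE 1.53, adjusted p = 0.00185).

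Lcn2, lipocalin 2, which binds bacterial siderophores, had the largest rise among the named genes. It ranged from 83.9 to 12860 CPM (median 3189) in S1-32 and from 0.936 to 84.6 CPM (median 7.10) in Control-32. Mouse 19 (83.9 CPM) was just short of control mouse 77 (84.6 CPM) and the rest lay above every control (log2 fold change 7.84, SE 1.59, adjusted p = 0.000453). Hp, haptoglobin, the binder of free haemoglobin, ranged from 1590 to 8679 CPM (median 4313) in S1-32 and from 606 to 2115 CPM (median 1247) in Control-32. Again only mouse 19 overlapped, and the gene rose (log2 fold change 2.04, SE 0.42, adjusted p = 0.000497). Lrg1, a leucine-rich glycoprotein of plasma, ranged from 1652 to 9153 CPM (median 4033) in S1-32 and from 173 to 1841 CPM (median 323) in Control-32. The same mouse 19 and control 77 touched, and the other 5 S1-32 mice stood clear (log2 fold change 2.99, SE 0.62, adjusted p = 0.000508). Crp, C-reactive protein, a minor acute phase protein in mice, ranged from 2533 to 7950 CPM (median 3909) in S1-32 and from 1162 to 3269 CPM (median 2208) in Control-32. All 6 S1-32 mice lay above the control median but 3 lay within the control range, and the small rise (log2 fold change 0.94, adjusted p = 0.0343) ended without mouse 20, 21, 23, 75, 76 or 78 (adjusted p = 0.0526 to 0.14) and under upper-quartile scaling and thinning.

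Promoter sequences are shown for acute phase genes that moved together, because they hold the core letters to which C/EBP factors can bind. Windows of 300 bases, 250 before to 50 after the gene start, were taken from RefSeq on GRCm38.p6 and searched on both strands. Of the 10 acute phase genes called higher, 9 had an entry. The C/EBP letters TTGCNNAA were found in 4 of the 9 (Fgb, Lcn2, Saa1 and Saa2) and in 10.8% of 32851 promoters. The STAT letters TTCNNNGAA were found in 2 (Apcs and Fgb) and in 8.3% of promoters, and the NF-kappaB decamer was in 0 of the 9 and in 1.2% of promoters. The windows are Saa1 (chr7:46742931-46743230, minus strand), Saa2 (chr7:46751583-46751882, plus strand), Lcn2 (chr2:32387690-32387989, minus strand) and Fgb (chr3:83049814-83050113, minus strand), with the C/EBP letters in capitals. A match describes the letters and is not evidence of binding.

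Saa1: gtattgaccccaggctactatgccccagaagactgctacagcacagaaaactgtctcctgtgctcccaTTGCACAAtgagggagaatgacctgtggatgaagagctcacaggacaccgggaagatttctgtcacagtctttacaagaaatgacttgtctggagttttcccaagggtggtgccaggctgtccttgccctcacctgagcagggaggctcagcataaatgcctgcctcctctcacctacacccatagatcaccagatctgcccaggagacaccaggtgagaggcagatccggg
Saa2: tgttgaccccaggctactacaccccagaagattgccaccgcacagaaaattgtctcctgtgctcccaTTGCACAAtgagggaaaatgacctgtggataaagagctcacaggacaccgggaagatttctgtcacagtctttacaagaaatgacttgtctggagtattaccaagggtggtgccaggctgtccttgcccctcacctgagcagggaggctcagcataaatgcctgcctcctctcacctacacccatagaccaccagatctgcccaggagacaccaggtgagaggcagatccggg
Lcn2: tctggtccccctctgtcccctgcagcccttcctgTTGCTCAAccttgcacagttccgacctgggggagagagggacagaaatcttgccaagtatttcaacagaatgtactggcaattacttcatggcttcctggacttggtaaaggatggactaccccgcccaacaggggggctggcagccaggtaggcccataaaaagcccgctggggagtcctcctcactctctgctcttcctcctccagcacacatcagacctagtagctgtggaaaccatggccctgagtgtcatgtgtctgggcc
Fgb: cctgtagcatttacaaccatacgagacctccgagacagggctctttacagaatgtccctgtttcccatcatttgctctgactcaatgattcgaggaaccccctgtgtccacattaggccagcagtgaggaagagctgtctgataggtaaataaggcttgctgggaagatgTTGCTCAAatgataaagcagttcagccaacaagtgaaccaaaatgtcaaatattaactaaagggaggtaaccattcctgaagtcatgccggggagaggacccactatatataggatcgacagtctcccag

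The matches lie 182 and 183 bases before the start in Saa1 and Saa2, 216 before it in Lcn2 and 80 before it in Fgb.

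Of 15 complement components tested 8 rose and 1 fell (60.0% called, against 29.1% of all; 7 higher and 3 lower under RLE, 6 and 3 under upper-quartile scaling), with a list median of 1.28. Their sum, of which C9 gave 36.3%, ran from 47813 to 59216 CPM (median 51337) in S1-32 and from 20473 to 105150 CPM (median 78269) in Control-32, where 4 of 6 controls lay above every S1-32 mouse and 2 below. Serping1, the inhibitor of the C1 protease, ranged from 1073 to 2500 CPM (median 2106) in S1-32 and from 157 to 798 CPM (median 314) in Control-32. No S1-32 mouse overlapped a control, mouse 19 being again the lowest (log2 fold change 2.19, SE 0.39, adjusted p = 0.000155). Hc, complement component 5, ranged from 3237 to 5525 CPM (median 4777) in S1-32 and from 250 to 1852 CPM (median 480.2) in Control-32, with no overlap (log2 fold change 2.49, SE 0.47, adjusted p = 0.000219). C1s1, the C1s protease, and C3, the central component, rose less (log2 fold change 1.28, adjusted p = 0.00702, and log2 fold change 1.39, adjusted p = 0.0103); mouse 19 was the highest S1-32 mouse for C1s1 and the lowest for C3.

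C9 and Vtn did not share this direction. C9, the pore-forming subunit of the membrane attack complex, ranged from 8234 to 16780 CPM (median 10690) in S1-32 and from 2817 to 62520 CPM (median 39100) in Control-32. Controls 73 and 74 lay below all S1-32 mice and the other 4 controls above them, so the groups straddled each other; the log2 fold change was -1.52 with adjusted p = 0.0611, and the gene was called lower without mouse 73 or 74 (adjusted p = 0.0232 to 0.0315). Vtn, vitronectin, which holds back that complex, ranged from 7851 to 10480 CPM (median 9775) in S1-32 and from 4408 to 25700 CPM (median 18840) in Control-32, with the 4 high controls again above every S1-32 mouse. It was not called (log2 fold change -0.86, adjusted p = 0.0647), and was called lower without mouse 73 or 74 (adjusted p = 0.0167 to 0.0352). C9 and Vtn were also called lower under RLE scaling, upper-quartile scaling, thinning and DESeq2.

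Of 16 coagulation genes 7 rose, 0 fell and 9 were not called (43.8% called, against 29.1% of all; median 0.86). Fgb, the fibrinogen beta chain that clots as fibrin, ranged from 1094 to 8429 CPM (median 3890) in S1-32 and from 199 to 1495 CPM (median 471) in Control-32. Mouse 19 overlapped control 74 and the other 5 lay above all controls (log2 fold change 2.73, SE 0.71, adjusted p = 0.00423). F2, prothrombin, ranged from 132 to 283 CPM (median 272) in S1-32 and from 0 to 127 CPM (median 30.6) in Control-32 without overlap (log2 fold change 2.37, SE 0.67, adjusted p = 0.00744). Kng1, kininogen, ranged from 2257 to 3165 CPM (median 2677) in S1-32 and from 445 to 1748 CPM (median 817) in Control-32, also without overlap (log2 fold change 1.49, SE 0.30, adjusted p = 0.00048). Serpina10, the protein Z-dependent inhibitor of factor Xa, ranged from 903 to 3600 CPM (median 1536) in S1-32 and from 0 to 687 CPM (median 37.1) in Control-32, with no overlap (log2 fold change 3.36, SE 0.88, adjusted p = 0.00455). Serpina3m, an inhibitor of the antichymotrypsin family with close copies in the genome, also rose without overlap (log2 fold change 2.47, adjusted p = 0.0126), as did Itih1, a heavy chain that hyaluronan carries (log2 fold change 2.45, adjusted p = 0.00185).

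Among 14 acute phase signalling genes 4 rose and 2 fell (42.9% called, against 29.1% of all, median 0.87). Cebpb, the C/EBP factor induced by interleukin 6, ranged from 2364 to 5685 CPM (median 3023) in S1-32 and from 5042 to 20170 CPM (median 13280) in Control-32. It fell: 5 of 6 S1-32 mice lay below every control, and mouse 19 lay above control 74 (log2 fold change -1.85, SE 0.48, adjusted p = 0.00423). Cebpa, the C/EBP factor of resting hepatocytes, ranged from 3698 to 5848 CPM (median 3747) in S1-32 and from 889.5 to 3262 CPM (median 1899) in Control-32, higher in every S1-32 mouse (log2 fold change 1.02, SE 0.31, adjusted p = 0.0125). Stat3, which carries the interleukin 6 signal, ranged from 40.5 to 96.1 CPM (median 68.8) in S1-32 and from 0 to 61.4 CPM (median 9.68) in Control-32, with control 74 reaching the S1-32 values. Its rise (log2 fold change 1.91, adjusted p = 0.0215) ended without mouse 75, 76 or 78 (adjusted p = 0.0521 to 0.0602). Nfkbia, the inhibitor that NF-kappaB itself induces, ranged from 158 to 327 CPM (median 189) in S1-32 and from 366 to 605 CPM (median 562) in Control-32, with every S1-32 mouse below every control (log2 fold change -1.28, SE 0.33, adjusted p = 0.00379). Socs3, which ends STAT3 signalling, was not called: from 12.2 to 64.7 CPM (median 27.2) in S1-32 and from 17.3 to 87.4 CPM (median 35.7) in Control-32, overlapping (log2 fold change -0.41, adjusted p = 0.632), and its estimate was 0.05 with mice 19 and 75 left out.

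Of 30 cytokine and NF-kappaB genes 4 rose and 8 fell (40.0% called, median -0.39), and of 26 interferon response genes 4 rose and 1 fell (19.2% called, against 29.1% of all; median 0.502). Ifitm3, which blocks virus entry, ranged from 1976 to 3269 CPM (median 2968) in S1-32 and from 0 to 1024 CPM (median 21.2) in Control-32. The controls spread from none in mouse 76 to 1024 CPM in mouse 74 and stayed below the lowest S1-32 mouse (log2 fold change 3.62, SE 1.26, adjusted p = 0.0267); the call ended without mouse 73, 75, 76 or 78 (adjusted p = 0.0514 to 0.0624). Igtp, an interferon-induced GTPase, ranged from 100.3 to 144 CPM (median 121) in S1-32 and from 0 to 65.8 CPM (median 22.8) in Control-32, again without overlap (log2 fold change 2.06, SE 0.60, adjusted p = 0.00985). Psmb9, an immunoproteasome subunit, fell from a low base, from 0 to 2.18 CPM (median 0.329) in S1-32 and from 0 to 63 CPM (median 7.88) in Control-32 (log2 fold change -5.13, SE 1.31, adjusted p = 0.00373), though control 73 had none.

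**Figure D2:**
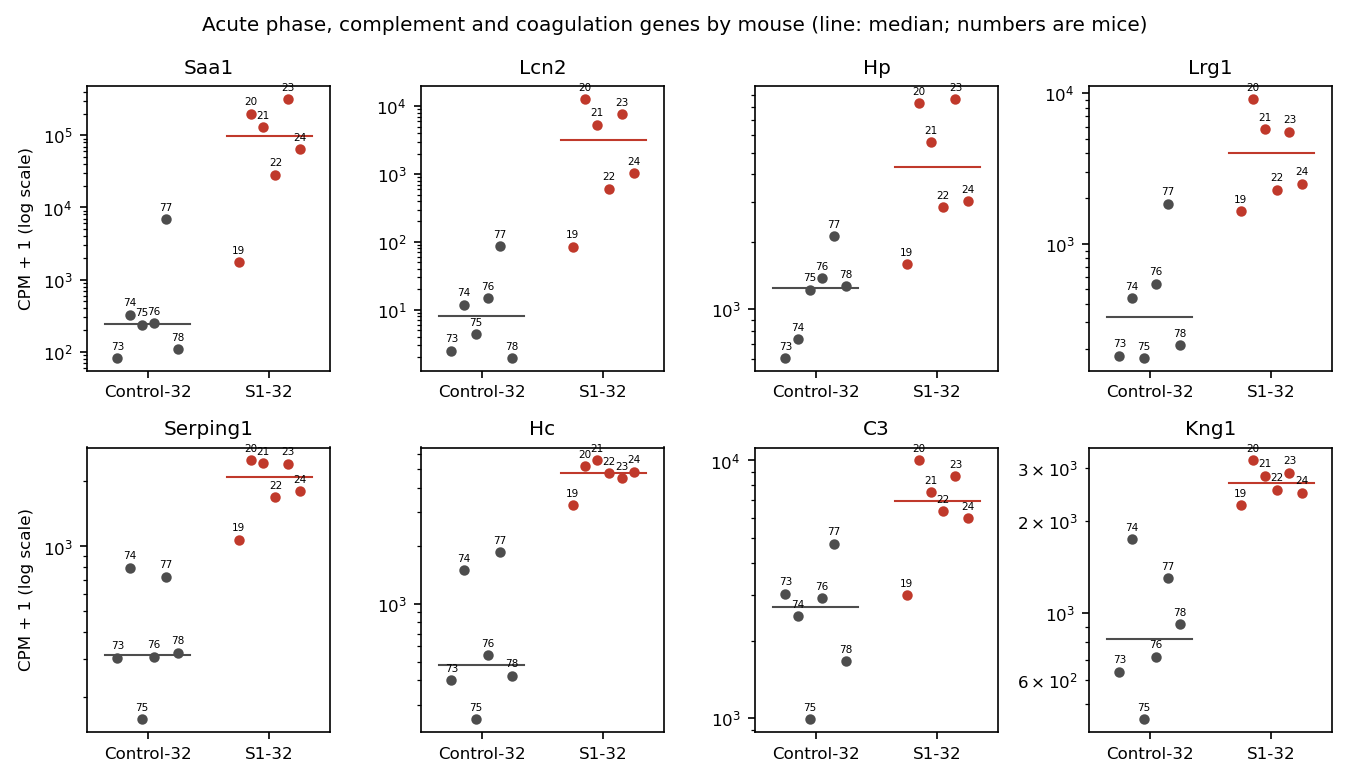
Level of 8 acute phase, complement and coagulation genes in each mouse (CPM + 1, log scale), with a line at each group's median. S1-32 mouse 19 is the lowest of its group for each gene shown, and Serping1, Hc and Kng1 do not overlap the controls.

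Some sterol synthesis genes were higher in S1-32. Of 18 synthesis and uptake genes tested, 8 rose, 1 fell and 9 were not called (50.0% called, against 29.1% of all; median 0.84, against 0.05 for all genes). Lss, lanosterol synthase, which closes the sterol rings, ranged from 23.4 to 126 CPM (median 55.2) in S1-32 and from 0.927 to 23.4 CPM (median 6.66) in Control-32. Mouse 23 (23.41 CPM) and control 74 (23.36 CPM) nearly met, and the other 5 S1-32 mice lay above every control (log2 fold change 2.78, SE 0.61, adjusted p = 0.00105). Cyp51, which removes a methyl group from lanosterol, ranged from 182 to 676 CPM (median 357) in S1-32 and from 53.8 to 154 CPM (median 95.2) in Control-32, and Dhcr7, which makes cholesterol in the last step, ranged from 104 to 229.6 CPM (median 146) in S1-32 and from 14.9 to 68.6 CPM (median 42.4) in Control-32. Both rose without overlap (log2 fold change 1.83, SE 0.39, adjusted p = 0.000915) for Cyp51 and (log2 fold change 1.86, SE 0.39, adjusted p = 0.00057) for Dhcr7.

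The pathway's early steps were less uniform. Hmgcs1, which makes HMG-CoA for the pathway, ranged from 279 to 2122 CPM (median 604) in S1-32 and from 84.8 to 633 CPM (median 179.9) in Control-32. Mice 20 and 21 alone exceeded every control, and the rise (log2 fold change 1.63, adjusted p = 0.0246) ended without mouse 20, 73, 75 or 77 (adjusted p = 0.0525 to 0.158) and under upper-quartile scaling. Sqle, squalene epoxidase, was not called, its S1-32 values lying inside a wide control range from 15.9 to 1340 CPM (log2 fold change -1.02, adjusted p = 0.308). Ebp, a sterol isomerase late in the pathway, was the 1 that fell: from 67.7 to 127 CPM (median 74.6) in S1-32 and from 33.9 to 647 CPM (median 259.9) in Control-32, where controls 73 and 74 lay below every S1-32 mouse and the other 4 above (log2 fold change -1.82, SE 0.51, adjusted p = 0.00757).

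The Hmgcs1 promoter is shown as the 1 window, of 6 held for the 8 sterol genes called higher, with the sterol element letters TCACNCCAC, which 1.24% of all promoters hold. It comes from RefSeq on GRCm38.p6 (chr13:119690101-119690400, plus strand), with the match, 137 bases before the start, in capitals.

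Hmgcs1: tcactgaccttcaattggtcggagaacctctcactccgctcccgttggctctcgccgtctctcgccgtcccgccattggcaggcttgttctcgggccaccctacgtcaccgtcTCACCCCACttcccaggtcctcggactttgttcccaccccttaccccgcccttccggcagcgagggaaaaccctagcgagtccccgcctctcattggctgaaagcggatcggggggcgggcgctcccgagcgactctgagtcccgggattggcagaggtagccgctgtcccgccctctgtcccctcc

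Of 13 bile acid genes 3 rose and 0 fell (23.1% called, against 29.1% of all; median 0.55). Abcb11, the pump that exports bile salts into the canaliculus, ranged from 2297 to 2817 CPM (median 2580) in S1-32 and from 205 to 1934 CPM (median 415) in Control-32. The S1-32 mice were tightly grouped above controls 74 and 77, which in turn stood above the other 4 (log2 fold change 1.81, SE 0.57, adjusted p = 0.0146). Slc10a2, the apical bile acid carrier, which takes bile acids up in bile ducts and ileum, ranged from 76.7 to 149 CPM (median 95.95) in S1-32 and from 0 to 38.9 CPM (median 15.9) in Control-32, without overlap (log2 fold change 2.51, SE 0.67, adjusted p = 0.00527). Nr1h4, FXR, the bile acid receptor, ranged from 113 to 275 CPM (median 165) in S1-32 and from 0 to 167 CPM (median 17.6) in Control-32, with control 74 inside the S1-32 range. Its rise (log2 fold change 2.12, adjusted p = 0.0343) ended without mouse 22, 73, 75, 76, 77 or 78 (adjusted p = 0.0606 to 0.0805) and under a fit of these groups alone. Cyp7a1, the rate-limiting enzyme of bile acid synthesis, spread from 19.01 to 777 CPM (median 517) in S1-32 and from 63.7 to 721 CPM (median 209) in Control-32 and was not called (log2 fold change 0.47, adjusted p = 0.644).

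Genes of fatty acid and triglyceride synthesis were split, 3 of 13 rising and 3 falling (46.2% called); the list median of 0.07 turned to -0.03 under RLE and -0.17 under upper-quartile scaling. Acly, which makes cytosolic acetyl-CoA from citrate, ranged from 506 to 632 CPM (median 587) in S1-32 and from 49.5 to 433 CPM (median 159.7) in Control-32, higher in every S1-32 mouse (log2 fold change 1.60, SE 0.49, adjusted p = 0.0132). Fasn, fatty acid synthase, fell (log2 fold change -1.82, adjusted p = 0.0133), with the S1-32 values from 351 to 857 CPM (median 574) overlapping controls 77 and 74 in a control spread from 527 to 4034 CPM (median 1586), and its call ended without mouse 75 (adjusted p = 0.0519). Lpgat1, an acyltransferase of lysophospholipids, ranged from 835 to 2714 CPM (median 986) in S1-32 and from 48.1 to 545 CPM (median 122) in Control-32, higher in every S1-32 mouse with mouse 20 far out (log2 fold change 2.51, SE 0.58, adjusted p = 0.00182). Among 9 lipoprotein genes 1 rose and 2 fell (33.3% called, against 29.1% of all), and the median of 0.05 was -0.07 under RLE and -0.23 under upper-quartile scaling.

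**Figure D3:**
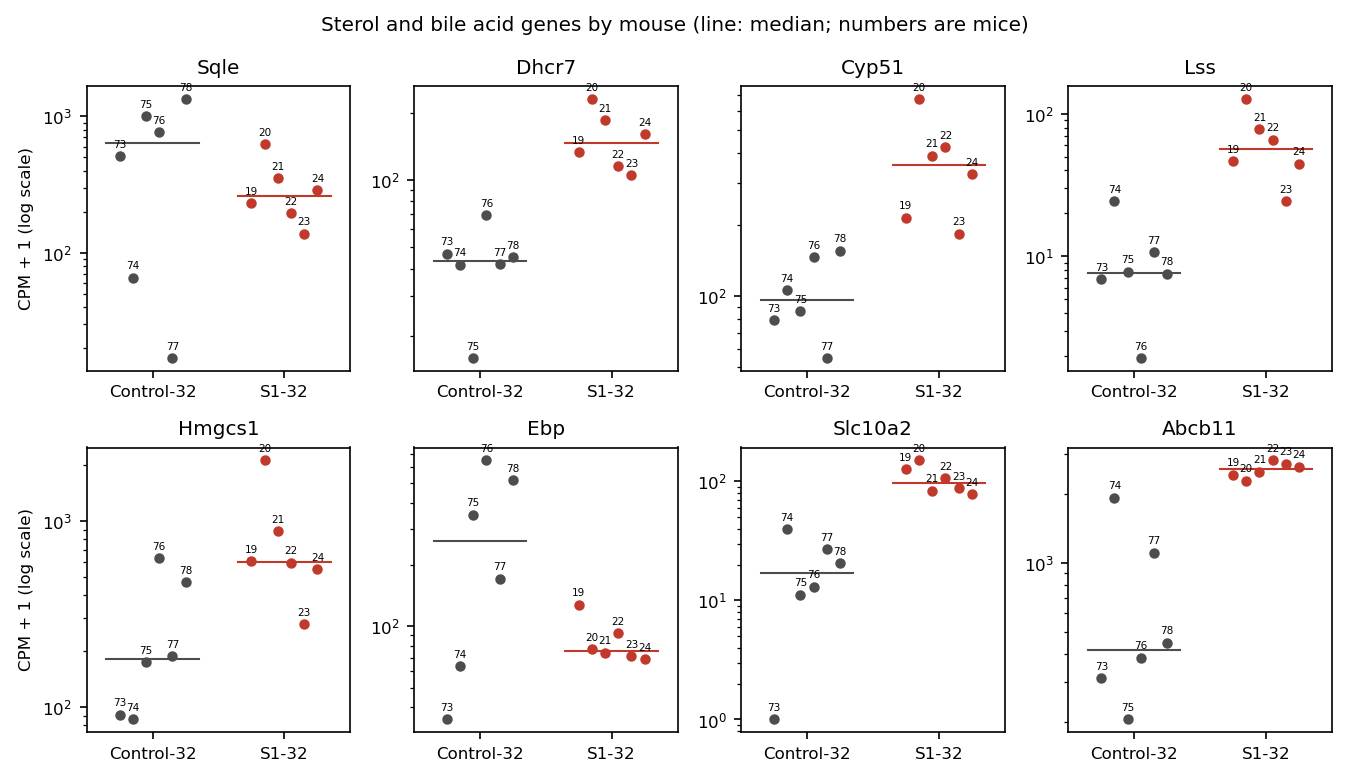
Level of 8 sterol and bile acid genes in each mouse (CPM + 1, log scale), with a line at each group's median. Every S1-32 mouse lies above every control for Dhcr7, Cyp51, Lss, Slc10a2 and Abcb11, and Ebp is the gene shown that fell.

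Respiratory chain subunits were more often called lower than higher in S1-32: of 23 genes tested 11 fell and 3 rose (60.9% called, against 29.1% of all), with a median of -0.56 that stayed negative under both other scalings. Of the 23 estimates 10 were positive and 13 negative. Ndufa5, an accessory subunit of complex I (chr6:24518666-24528013, GRCm38), ranged from 3.92 to 9.98 CPM (median 7.15) in S1-32 and from 20.2 to 75.9 CPM (median 27.02) in Control-32. All 6 S1-32 mice lay below all controls (log2 fold change -2.504, SE 0.45, adjusted p = 0.000155). Ndufs7, which holds an iron-sulfur cluster of complex I, ranged from 15.3 to 19.96 CPM (median 17.4) in S1-32 and from 23.8 to 214 CPM (median 105) in Control-32, also without overlap (log2 fold change -2.74, SE 0.52, adjusted p = 0.000231). Ndufa1, another complex I subunit, fell as well (log2 fold change -2.44, SE 0.45, adjusted p = 0.000206), with mouse 19 (2519 CPM) above control 74 (1964 CPM). Cycs, cytochrome c, which carries electrons to complex IV, had the smallest adjusted p of all genes. It ranged from 78.1 to 129.9 CPM (median 91.2) in S1-32 and from 106 to 599 CPM (median 528) in Control-32, where control 74 lay under mice 20 and 21, and 77 under the other 4 controls (log2 fold change -2.06, SE 0.32, adjusted p = 3.56e-05). Atp5a1, the catalytic-core alpha subunit of ATP synthase, ranged from 260.3 to 446 CPM (median 318) in S1-32 and from 500 to 1373 CPM (median 902) in Control-32, without overlap (log2 fold change -1.52, SE 0.27, adjusted p = 0.000155).

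The cytochrome b gene, which the mitochondrial genome encodes, rose. Cytb, cytochrome b of complex III, ranged from 678 to 1292 CPM (median 905) in S1-32 and from 54.3 to 554 CPM (median 157) in Control-32, higher in every S1-32 mouse (log2 fold change 1.95, adjusted p = 0.025); this call ended without mouse 75, 76 or 78 (adjusted p = 0.0621 to 0.069). Sdhb, the iron-sulfur subunit of succinate dehydrogenase, fell from low counts, from 0 to 1.25 CPM (median 0.338) in S1-32 and from 0.433 to 54.2 CPM (median 12.6) in Control-32 (log2 fold change -5.14, adjusted p = 0.00267), with control 74 among the S1-32 values. Mrpl12 and Mrpl19 are proteins of the mitochondrial ribosome. Mrpl12 ranged from 33.6 to 55.8 CPM (median 43.4) in S1-32 and from 59.7 to 590.4 CPM (median 322) in Control-32 (log2 fold change -2.88, SE 0.52, adjusted p = 0.000155). Mrpl19 ranged from 2.75 to 5.53 CPM (median 3.54) in S1-32 and from 6.06 to 40.2 CPM (median 20.7) in Control-32 (log2 fold change -2.52, SE 0.503, adjusted p = 0.000388). Neither overlapped, and control 74 was for both the control nearest to S1-32. Mcur1, which assembles the mitochondrial calcium uniporter, rose (log2 fold change 2.49, adjusted p = 0.0208), from 52.1 CPM upward in S1-32 and up to 48.9 CPM in control 74; the call ended without mouse 78 (adjusted p = 0.0539).

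Around pyruvate dehydrogenase, the complex whose kinases DCA inhibits, 2 of 12 genes rose and 3 fell (41.7% called, against 29.1% of all, median 0.58). Pdhx, which binds the E3 enzyme into the complex, ranged from 79.8 to 105 CPM (median 89.8) in S1-32 and from 135 to 609 CPM (median 321) in Control-32. Every S1-32 mouse lay below every control (log2 fold change -1.85, SE 0.30, adjusted p = 7.42e-05). Cs, citrate synthase, ranged from 513 to 664 CPM (median 578) in S1-32 and from 112 to 495 CPM (median 249) in Control-32 and rose without overlap (log2 fold change 1.08, SE 0.30, adjusted p = 0.00701). In glycolysis, gluconeogenesis and glycogen metabolism 1 of 17 rose and 5 fell (35.3% called, near the 29.1% of all). The median of 0.14 was -0.04 under RLE and -0.20 under upper-quartile scaling. Aldoa, the muscle-type aldolase, fell, with mouse 21 just above control 74 (log2 fold change -2.30, SE 0.46, adjusted p = 0.000439).

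Some chaperones fell as well, 6 of 22 heat shock genes falling and 0 rising (27.3% called, against 29.1% of all; 0 higher and 6 lower under RLE, 0 and 11 under upper-quartile scaling; median -0.51). Hspd1, the mitochondrial chaperonin HSP60, ranged from 9.55 to 21.5 CPM (median 14.9) in S1-32 and from 24.2 to 189.7 CPM (median 100.4) in Control-32, with no overlap (log2 fold change -2.73, SE 0.48, adjusted p = 0.000155). Tcp1, a subunit of the cytosolic chaperonin that folds actin and tubulin, ranged from 301 to 429 CPM (median 355) in S1-32 and from 478 to 3465 CPM (median 1945) in Control-32, with no overlap (log2 fold change -2.43, SE 0.45, adjusted p = 0.000179). In the endoplasmic reticulum 4 of 25 genes rose and 3 fell (28% called, median -0.08). P4hb, protein disulfide isomerase, rose with only mouse 19 inside the control range (log2 fold change 1.49, SE 0.35, adjusted p = 0.00185). Calr, the calcium-binding lectin chaperone, fell although control 74 lay below every S1-32 mouse (log2 fold change -1.59, SE 0.45, adjusted p = 0.00791). Edem1, which sends misfolded glycoproteins to degradation, ranged from 890.1 to 1637 CPM (median 1183) in S1-32 and from 3.74 to 808 CPM (median 72.8) in Control-32. Control 74 was its only control near the S1-32 values (log2 fold change 2.68, adjusted p = 0.0369), and the call ended without mouse 20, 22, 73, 75, 76, 77 or 78 (adjusted p = 0.0514 to 0.0846). Of 22 ATF4 stress response genes, 1 rose and 8 fell (40.9% called, median -0.37), Cebpb among the latter.

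**Figure D4:**
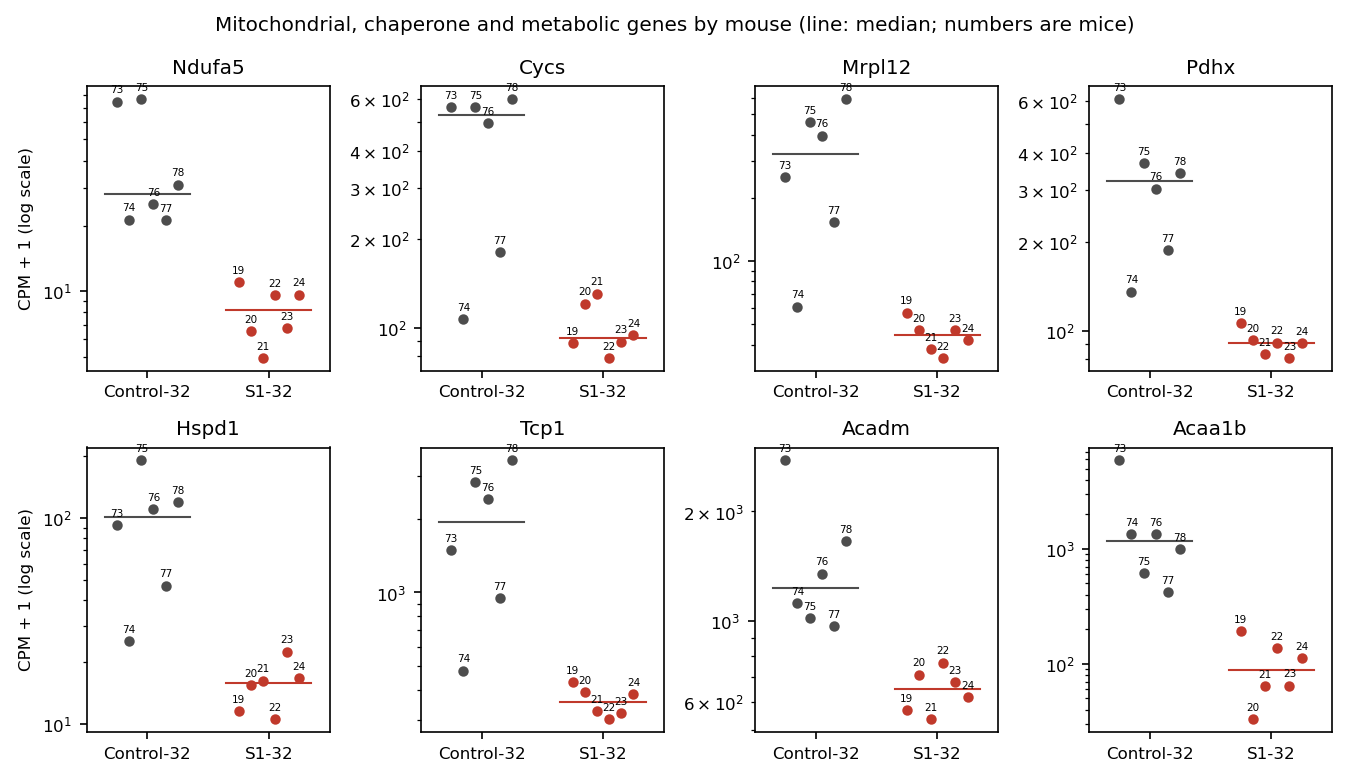
Level of 8 mitochondrial, chaperone and metabolic genes in each mouse (CPM + 1, log scale), with a line at each group's median. Control mouse 74 is the lowest control for 5 of the 8 genes, and Cycs is the 1 gene shown in which the groups overlap.

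Among 30 genes of fatty acid oxidation, which include peroxisomal and PPARA target genes, 7 fell and 0 rose (23.3% called, against 29.1% of all; 1 higher and 10 lower under RLE, 0 and 13 under upper-quartile scaling), with 13 positive and 17 negative estimates (median -0.26). Acaa1b, the peroxisomal thiolase that ends each round of beta-oxidation, ranged from 31.8 to 192 CPM (median 87.2) in S1-32 and from 417 to 5880 CPM (median 1168) in Control-32. The groups did not overlap, and control 73 stood far above the other controls (log2 fold change -4.14, SE 0.88, adjusted p = 0.000761). Acadm, medium-chain acyl-CoA dehydrogenase, ranged from 535 to 767 CPM (median 648) in S1-32 and from 965 to 2762 CPM (median 1233) in Control-32, without overlap (log2 fold change -1.19, SE 0.30, adjusted p = 0.00304). Slc27a1, a fatty acid transport protein, fell with a slight overlap between mouse 22 and control 74 (log2 fold change -1.44, SE 0.36, adjusted p = 0.00296). Ppara, the receptor itself, was not called (log2 fold change -0.69, adjusted p = 0.109), although 5 of 6 S1-32 mice lay below every control, and it was called lower under upper-quartile scaling, DESeq2 and a fit of these groups alone.

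Cyp4a14, an omega-hydroxylase of fatty acids and a PPARA target, had the largest fall of all genes tested. It ranged from 0 to 31.3 CPM (median 1.37) in S1-32 and from 0 to 3736 CPM (median 9.77) in Control-32. Controls 73 (3023 CPM) and 74 (3736 CPM) carried the difference, and the other 4 controls lay inside the S1-32 range (log2 fold change -7.32, SE 1.94, adjusted p = 0.00494). Close copies of this gene may share its probe, so the signal is that of the family. It is also one of 13 female-biased liver genes tested, of which 5 fell and 0 rose (38.5% called, median -1.42). Among all genes 29.1% were called and 17.2% were called lower. Sult3a1, a female-biased sulfotransferase, fell to almost none from at most 16.9 CPM in control 75 (log2 fold change -5.52, adjusted p = 0.0152), but controls 73 and 74 had none either and the call ended without mouse 75 (adjusted p = 0.0681) and under thinning. None of 15 male-biased genes was called (edgeR, 0 of 15; 2 with unadjusted p below 0.05, 3 called by DESeq2; 1 higher and 1 lower under RLE, 0 and 2 under upper-quartile scaling; median -0.01).

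Drug-metabolizing enzymes were called about as often as all genes (29.1%) or less: 3 of 47 cytochrome P450 and phase I genes rose and 11 fell (29.8% called; 3 higher and 11 lower under RLE, 3 and 15 under upper-quartile scaling; median -0.28), and 2 of 33 conjugation genes rose and 5 fell (21.2% called, median -0.06). Ugdh, which makes the UDP-glucuronate used in conjugation, ranged from 1943 to 5012 CPM (median 2396) in S1-32 and from 4452 to 36910 CPM (median 17550) in Control-32. Only mouse 19 (5012 CPM) reached the control range, above control 74 (log2 fold change -2.88, SE 0.71, adjusted p = 0.00277). Hsd17b11, a steroid dehydrogenase on lipid droplets, ranged from 467 to 1278 CPM (median 645) in S1-32 and from 1724 to 6157 CPM (median 2559) in Control-32 and fell without overlap (log2 fold change -2.09, SE 0.46, adjusted p = 0.00117). Among 30 NRF2 antioxidant genes 3 rose and 6 fell (close to the 29.1% called among all genes; median 0.32). Sod1, the cytosolic superoxide dismutase, ranged from 1409 to 1937 CPM (median 1658) in S1-32 and from 1944 to 9456 CPM (median 7102) in Control-32, the groups nearly meeting at mouse 20 and control 74 (log2 fold change -1.97, SE 0.49, adjusted p = 0.00329); Sod3, the extracellular form, also fell, though control 74 lay below every S1-32 mouse (log2 fold change -1.92, adjusted p = 0.0018).

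Insulin and energy signalling genes were split, 2 of 26 rising and 6 falling (30.8% called, against 29.1% of all; median -0.14). Irs1, the insulin receptor substrate, ranged from 57.4 to 92.2 CPM (median 78.04) in S1-32 and from 56.03 to 271 CPM (median 154) in Control-32. Control 73 lay below all S1-32 mice and the other 5 controls above them (log2 fold change -0.94, adjusted p = 0.0293); the call ended without mouse 22, 75 or 78 (adjusted p = 0.0505 to 0.0773) and under a fit of all panel genes. Cps1, which opens the urea cycle, ranged from 316 to 747 CPM (median 603) in S1-32 and from 98.2 to 444 CPM (median 146) in Control-32; 5 of 6 S1-32 mice exceeded every control, but the call (log2 fold change 1.41, adjusted p = 0.0486) ended without mouse 19, 21, 22, 23, 24, 73, 75, 76 or 78 (adjusted p = 0.0571 to 0.116) and under upper-quartile scaling and thinning.

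Immediate-early genes fell in 6 of 20 cases and rose in 1 (35% called; 1 higher and 7 lower under RLE, 0 and 9 under upper-quartile scaling; median -1.06), and cell cycle genes fell in 12 of 65 and rose in 2 (21.5% called, against 29.1% of all, of which 17.2% were lower; 2 higher and 14 lower under RLE, 1 and 20 under upper-quartile scaling; median -0.79). Fosl1, a FOS-family partner in the AP-1 factor, ranged from 0.692 to 3.82 CPM (median 2.28) in S1-32 and from 8.22 to 104 CPM (median 32.7) in Control-32. All S1-32 mice lay below all controls (log2 fold change -4.14, SE 1.17, adjusted p = 0.00781), as for Ier3, an early gene of stress and survival (log2 fold change -2.86, adjusted p = 0.0142). Ccnd1, cyclin D1, which drives entry into the cycle, ranged from 8.60 to 21.2 CPM (median 13.2) in S1-32 and from 18.7 to 81.3 CPM (median 51.6) in Control-32, overlapping only at mouse 19 and control 77 (log2 fold change -1.89, SE 0.56, adjusted p = 0.0105). Gmnn, geminin, which prevents replication from starting again, fell (log2 fold change -2.495, SE 0.69, adjusted p = 0.00694), and Cdc25b, a phosphatase that starts mitosis, fell from low levels (log2 fold change -2.87, adjusted p = 0.00694), a call that ended without mouse 75 (adjusted p = 0.0525); control 73 had no count for either. Cdca4, a nuclear protein of the cell division cycle family, rose from near none: from 6.69 to 11.8 CPM (median 7.52) in S1-32 and from 0 to 1.44 CPM (median 0) in Control-32, where 4 controls had none (log2 fold change 3.70, SE 0.72, adjusted p = 0.000331).

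Some other named genes lay outside these groups. Genes named for size were picked only among those with a mean of 20 CPM or more in either group and no overlap. Their separation was thus a condition of naming, and some larger changes elsewhere are not shown. Rps27l, a p53-induced ribosomal protein, ranged from 1137 to 1776 CPM (median 1270) in S1-32 and from 2000 to 17220 CPM (median 13100) in Control-32, without overlap (log2 fold change -3.07, SE 0.56, adjusted p = 0.000155). Spag7 (log2 fold change -4.81, adjusted p = 0.00165), Chic2 (log2 fold change -3.47, adjusted p = 0.000206), Lsamp, a neural cell adhesion protein (log2 fold change -2.90, adjusted p = 0.00437), and Pdgfa, a growth factor for stellate cells (log2 fold change -2.85, adjusted p = 0.00988), also fell with no overlap. Ctnnd1, the p120 catenin that steadies cadherins, was not called (log2 fold change -0.35, adjusted p = 0.494), its values running from 895 to 1628 CPM (median 1229) in S1-32 and from 1168 to 2594 CPM (median 1513) in Control-32. Mup15 and Gm2083 belong to the major urinary proteins, whose copies are nearly identical, so their probe signals are not assigned to single genes with certainty. The 5 panel genes named Mup had 2 positive and 3 negative estimates (median -0.14), with 1 called higher (Mup15) and 1 lower. Their sum had a median of 208088 CPM in S1-32 and 491963 CPM in Control-32, with overlapping ranges. Mup15 ranged from 3428 to 8977 CPM (median 6463) in S1-32 and from 135 to 2605 CPM (median 299) in Control-32, higher in every S1-32 mouse (log2 fold change 3.17, adjusted p = 0.0428). Gm2083 ranged from 4021 to 11250 CPM (median 6525) in S1-32 and from 141 to 2342 CPM (median 651) in Control-32, likewise separated (log2 fold change 3.001, adjusted p = 0.0427). The Mup15 call ended without mouse 21, 22, 24, 73, 75, 76, 77 or 78 (adjusted p = 0.0565 to 0.0952), and the Gm2083 call ended without mouse 21, 22, 24, 73, 75, 76, 77 or 78 (adjusted p = 0.0522 to 0.0957). Tmem176b, a membrane protein of dendritic cells and macrophages, rose (log2 fold change 1.63, SE 0.38, adjusted p = 0.0019) with mouse 19 inside the control range.

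Calls among macrophage markers went both ways: of 13 tested 4 rose and 2 fell (46.2% called, against 29.1% of all). Of the 13 estimates 11 were positive and 2 negative (median 0.84). The list summed from 2380.3 to 3262 CPM (median 3025) in S1-32 and from 1620.4 to 5352 CPM (median 3611) in Control-32, overlapping. Tyrobp was the most abundant at 37.6%. C1qc, a chain of complement C1q made by Kupffer cells, ranged from 229.5 to 372 CPM (median 305) in S1-32 and from 53.5 to 166 CPM (median 111) in Control-32, without overlap (log2 fold change 1.45, SE 0.43, adjusted p = 0.0109). Cd68, a lysosomal glycoprotein of macrophages, ranged from 21.8 to 42.5 CPM (median 31.2) in S1-32 and from 0 to 12.9 CPM (median 5.05) in Control-32, where mice 73, 76 and 78 had no counts (log2 fold change 2.40, SE 0.65, adjusted p = 0.00584). Tyrobp, the adaptor of activating receptors, fell, with control 74 below every S1-32 mouse (log2 fold change -2.39, SE 0.64, adjusted p = 0.00557), and Fcer1g, a related adaptor, fell without overlap (log2 fold change -2.06, SE 0.66, adjusted p = 0.0163). The part of macrophage number in any change was not tested.

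Endothelial markers summed from 925 to 1154 CPM (median 1069) in S1-32 and from 533 to 997 CPM (median 692) in Control-32. Of 13 tested, 2 rose and 0 fell (15.4% called, against 29.1% of all, of which 11.9% were higher). The counts were 1 higher and 0 lower under RLE, and 1 and 1 under upper-quartile scaling. The list median was 0.36, and Clec1b was the most abundant at 31.2%. Kdr, VEGF receptor 2, ranged from 213 to 275 CPM (median 217) in S1-32 and from 14.9 to 191 CPM (median 56.6) in Control-32, higher in every S1-32 mouse (log2 fold change 1.73, adjusted p = 0.0168), a call that ended without mouse 75 (adjusted p = 0.0537). Cavin2 (SDPR on the panel), which shapes caveolae, rose slightly, from 71.6 to 114 CPM (median 94.4) in S1-32 and from 34.3 to 92.6 CPM (median 50.6) in Control-32 (log2 fold change 0.79, adjusted p = 0.0462). That call ended without mouse 19, 20, 21, 22, 23, 24, 73, 75, 76, 77 or 78 (adjusted p = 0.0507 to 0.123), and with all 12 kept it ended under RLE and upper-quartile scaling, under TMM without the 50 most abundant genes, by DESeq2 and after thinning. Stellate cell and fibroblast markers summed from 425 to 935 CPM (median 705) in S1-32 and from 503 to 871 CPM (median 729) in Control-32, with Igfbp3 most abundant (40.9%). Of 17 tested, 1 fell and 0 rose (5.88% called, against 29.1% of all), and the median of 0.16 was -0.12 under upper-quartile scaling. Timp2, the metalloproteinase inhibitor, was the 1 that fell (log2 fold change -5.49, adjusted p = 0.00574), from 52.8 CPM in control 75 and none in controls 73 and 74. Col1a1, the main chain of scar collagen, was not called, running from 44.5 to 128 CPM (median 79.8) in S1-32 and from 26.5 to 111 CPM (median 41.6) in Control-32 (log2 fold change 0.68, adjusted p = 0.353). Col4a1, of the basement membrane, was not called either (log2 fold change 0.49, adjusted p = 0.562), and 0 of 11 collagens were called by edgeR (0 with unadjusted p below 0.05, 0 called by DESeq2; median 0.36).

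Cholangiocyte markers summed from 1019.5 to 1982 CPM (median 1257) in S1-32 and from 866 to 7168 CPM (median 1463) in Control-32, with Krt8 the most abundant at 53.9% and control 76 far above the rest. Krt8, a keratin that hepatocytes also carry, fell, with mouse 20 just above control 74 (log2 fold change -2.17, SE 0.53, adjusted p = 0.00268), the 1 of 7 called (14.3%, against 29.1% of all, median -0.68). The 22 pancreas genes on the panel summed from 380.0 to 4649 CPM (median 440.3) in S1-32, with the top value in mouse 19, and from 150.4 to 572 CPM (median 459) in Control-32; Amy1, an amylase that liver also makes, gave 49% of the sum. Cela2a, a pancreatic elastase, reached 345 CPM in mouse 19 and at most 7.41 CPM in the other 5 S1-32 mice, against a range from 0 to 6.10 CPM (median 1.94) in Control-32. Its call (log2 fold change 4.55, adjusted p = 0.0428) ended without mouse 19, 73, 74, 75, 76, 77 or 78 (adjusted p = 0.0603 to 0.802) and under RLE, upper-quartile scaling, DESeq2 and thinning. Cpa1, carboxypeptidase A1, was at 745 CPM in mouse 19 and at or near 0 in the others, and its estimate of 4.30 (adjusted p = 0.0829) turned to -4.14 without mouse 19 and to -3.45 without mice 19 and 75. Of 11 pancreas genes tested, 1 was called higher and 1 lower (18.2% called, against 29.1% of all), with 10 positive estimates and 1 negative (median 1.65). Gm5771, of the trypsinogen family with near-identical copies and so uncertain, was the 1 that fell (log2 fold change -4.74, adjusted p = 0.025), a call that ended without mouse 22 or 75 (adjusted p = 0.053 to 0.0648). Such values were not particular to mouse 19: in S1-10 Cela2a ran from 0.921 to 658 CPM (median 2.84) and Cpa1 from 0 to 1190 CPM (median 0).

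Adipocyte markers summed from 44.5 to 85.3 CPM (median 61.8) in S1-32 and from 68.3 to 311 CPM (median 149) in Control-32, most of it Fabp4 (71.1%), and 3 of 4 fell (75% called, against 29.1% of all, of which 17.2% were lower), among them Cfd, adipsin (log2 fold change -4.83, adjusted p = 0.0095), a call that ended without mouse 75 (adjusted p = 0.0619). Neural markers summed from 108 to 159.8 CPM (median 141) in S1-32 and from 105 to 587 CPM (median 179.8) in Control-32, with mouse 75 highest. Of 15 tested, 1 rose and 4 fell (33.3% called, median -1.28), and Slc1a2 was the most abundant (24.6%). The counts were 1 higher and 6 lower under RLE, and 0 and 7 under upper-quartile scaling. Scn8a, a sodium channel, fell, from a range of 0 (mouse 73) to 45.4 CPM (mouse 75) in Control-32 to at most 0.787 CPM in S1-32 (log2 fold change -5.81, SE 1.504, adjusted p = 0.00414). Neutrophil markers (0 of 3 called; 1 with unadjusted p below 0.05, 0 called by DESeq2), B and plasma cell markers (0 of 7; 0 with unadjusted p below 0.05, 0 called by DESeq2) and erythroid markers (0 of 5; 1 with unadjusted p below 0.05, 2 called by DESeq2) gave no call by edgeR. Elsewhere, 1 of 9 T and NK cell genes rose (11.1% called, against 29.1% of all; 0 higher and 0 lower under RLE, 0 and 1 under upper-quartile scaling), and 1 of 7 muscle genes fell (14.3% called). Their sums overlapped: from 67.9 to 124 CPM (median 94.03) against a range from 60.99 to 182 CPM (median 100.4) for neutrophils and from 227 to 334 CPM (median 253) against a range from 131 to 381 CPM (median 282) for T and NK cells, led by Gimap4. B and plasma cell markers, mostly Cd74, summed from 579 to 1625 CPM (median 853) in S1-32 and from 643 to 3681 CPM (median 1775) in Control-32. Erythroid markers, led by Hba-a2, summed from 576 to 1465 CPM (median 829) against a range from 610.3 to 2413 CPM (median 1125), and muscle markers, led by Acta1, from 84.8 to 143 CPM (median 128) against a range from 1.47 to 224 CPM (median 117). No marker in these lists was at 0 in all 12 libraries. The list medians of T and NK cells (0.10) and of B and plasma cells (0.02) were -0.12 and -0.31 under upper-quartile scaling, and the latter was -0.13 under RLE.

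Each of the calls above that ended without a single library ended with the depth covariate as well; all but those of Cdc25b, Cfd, Fasn and Sult3a1 ended with all 78 libraries, and all but those of Irs1, Mcur1 and Stat3 without mice 19 and 75 together. Of the calls that held without each single library, those of Abcb11, Acly, C1qc, C1s1, C3, Calr, Cd68, Cebpa, Cs, Fcer1g, Igtp, Kng1, P4hb and Tmem176b ended with all 78 libraries, and those of Abcb11, Acly, C1s1, Cebpa, Cs, Fcer1g, Gmnn and Pdgfa without that pair. The covariate ended 72 of the named calls; those reported here that held with it were Atp5a1, Cdca4, Chic2, Cycs, Cyp51, Dhcr7, Hc, Hp, Hspd1, Lcn2, Lrg1, Mrpl12, Mrpl19, Ndufa1, Ndufa5, Ndufs7, Pdhx, Rps27l, Saa1, Serping1 and Tcp1.

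At the end of exposure S1-10 was compared with its own controls, and none of its edgeR calls held without Control-10 mouse 68. S1-10 and Control-10 gave 121 calls (5.49%), 24 higher (1.09%) and 97 lower (4.40%). Of these, 71 were called in the same direction in S1-32 (13 higher and 58 lower), 58.7% of the S1-10 calls and 11.1% of the S1-32 calls, and 0 in the opposite direction. With single libraries left out, chosen after seeing the data, S1-10 gave from 64 to 151 calls, except without Control-10 mouse 68, where edgeR called 0 (204 with unadjusted p below 0.05) and DESeq2 called 22 (12 higher and 10 lower). All 19 named genes called in S1-10 lost that call without mouse 68, and no edgeR call was then shared with S1-32. The estimates moved unevenly. Acaa1b was -3.63 without mouse 68 and -3.27 to -3.70 in the other fits without 1 library, and Tmem176b was 1.69 against 1.07 to 1.53. Ccdc85b was -0.72 against -2.99 to -3.44, and Spag7 was 0.72 against -3.52 to -4.11. The S1-10 log2 fold change had the S1-32 sign for 581 of the 642 genes called in S1-32 (90.5%), against 73.6% of all genes, and for 81% of the 642 without Control-10 mouse 68; the comparisons share no library. The acute phase list had a median of 1.37 in S1-10 and 1.60 in S1-32, complement 1.19 and 1.28, sterol genes 0.49 and 0.84, and respiratory chain genes -0.06 and -0.56; the median of all genes was -0.03 and 0.05. The test of the difference between the changes called 0 genes by edgeR (0%; 220 at unadjusted p under 0.05, smallest adjusted p = 0.117) and 15 by DESeq2; with single libraries left out it was 2 without Control-10 mouse 68 and 16 without Control-32 mouse 74.

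With all libraries kept, genes called lower at both times included Acaa1b, Hsd17b11, Ugdh and Slc27a1, and each S1-10 call in this paragraph ended without Control-10 mouse 68. For Acaa1b 6 of 6 S1-10 mice lay below every control, and its edgeR estimate without mouse 68 was -3.63 (adjusted p = 0.0761). Hsd17b11 ran from 580.1 to 823 CPM (median 695) in S1-10 and from 2302 to 9236 CPM (median 2471) in Control-10, again without overlap (log2 fold change -2.57, SE 0.496, adjusted p = 0.00138). Ugdh ran from 1789 to 2630 CPM (median 2158) in S1-10 and from 3621 to 67830 CPM (median 8451) in Control-10, also separated (log2 fold change -3.35, SE 0.76, adjusted p = 0.00649). Without mouse 68 these estimates were -1.80 (adjusted p = 0.103) and -1.66 (adjusted p = 0.443). Khdc4 (2810403A07RIK on the panel), an RNA-binding protein of splicing, fell in S1-32 (log2 fold change -1.72, adjusted p = 0.00541) and in S1-10 (log2 fold change -2.20, adjusted p = 0.00649), with no overlap at either time; without mouse 68 it was -1.57 (adjusted p = 0.207). Slc27a1 (log2 fold change -1.69, SE 0.39, adjusted p = 0.00649) was also called lower in S1-10, and without mouse 68 was -1.16 (adjusted p = 0.25). Ccdc85b, a coiled-coil protein, fell in S1-32 (log2 fold change -2.61, adjusted p = 0.00268); it ran from 70.9 to 124 CPM (median 104) in S1-10 and from 112 to 2904 CPM (median 193) in Control-10 (log2 fold change -3.08, SE 0.69, adjusted p = 0.00645), where mouse 68 was the highest, and without that mouse the estimate was -0.72 (adjusted p = 0.787). The transcript 2900092D14RIK fell in S1-32 (log2 fold change -4.96, adjusted p = 0.00177); it ran from 0 to 1.41 CPM (median 0.303) in S1-10 and from 1.29 to 130.4 CPM (median 3.37) in Control-10 (log2 fold change -5.82, SE 1.34, adjusted p = 0.00667), again with mouse 68 the highest, and without it the estimate was -2.16 (adjusted p = 0.656). Saa1 at week 10 ran from 1068 to 160000 CPM (median 7521) in S1-10 and from 47.8 to 2876 CPM (median 1348) in Control-10, not called (log2 fold change 4.47, SE 1.65, adjusted p = 0.0978). Hp, higher in S1-32, was also called higher in S1-10, where it ranged from 1247 to 8085 CPM (median 2063) against a range from 484 to 935 CPM (median 783) in Control-10 (log2 fold change 1.96, SE 0.48, adjusted p = 0.0128); without Control-10 mouse 68 the estimate was 1.80 (adjusted p = 0.138), and without S1-10 mouse 15 it was 1.30 (adjusted p = 0.0884).

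Among genes called in S1-32, those with the smallest p for a difference from S1-10 did not pass its test. Cps1 was higher in S1-32 than in its controls and had a negative estimate in S1-10 (log2 fold change -1.55, difference 2.96, adjusted p = 0.117). Cycs, lower in S1-32, had -0.27 in S1-10 (difference -1.79, adjusted p = 0.117), and Cdca4, higher in S1-32, had 0.25 (difference 3.45, adjusted p = 0.117).

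By week 57 few genes were called. S1-57 against Control-57 gave 35 calls (1.59%), 8 higher (0.363%) and 27 lower (1.22%), of which 16 were also called in S1-32 in the same direction (3 higher and 13 lower; 45.7% of the S1-57 calls and 2.49% of the S1-32 calls) and 0 in the opposite one. With single libraries left out, chosen after seeing the data, S1-57 gave from 6 calls (without Control-57 mouse 82) to 36 (without mouse 79). The S1-57 sign matched for 445 of the 642 genes called in S1-32 (69.3%, against 59.7% of all genes), and for 58.4% to 79.9% of them with single libraries left out. The medians at week 57 were -0.37 for acute phase proteins, -0.20 for complement, -0.32 for sterol genes and -0.29 for the respiratory chain, against 0.07 for all genes. The change in S1-32 differed from that in S1-57 for 38 genes (1.72%), more positive in S1-32 for 15 (0.680%) and more negative for 23 (1.04%). Other settings gave 138 (RLE; 26 more positive and 112 more negative), 228 (upper-quartile scaling, chosen after seeing the data; 25 and 203), 265 (DESeq2; 51 and 214) and 11 (without mice 19 and 75; 7 and 4). With single libraries left out, also chosen after seeing the data, it ran from 10 to 201, the highest without Control-32 mouse 74.

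Lcn2 showed the largest difference among the named genes: S1-57 ranged from 5.23 to 238 CPM (median 76.1) and Control-57 from 27.5 to 3611 CPM (median 82.9), overlapping, with a log2 fold change of -2.83 (difference 10.66, adjusted p = 0.00164). Hp ran from 623 to 1962 CPM (median 938) in S1-57 and from 1492 to 4311 CPM (median 2545) in Control-57, where 4 of 6 S1-57 mice lay below every control, with a difference of 3.28 (adjusted p = 0.00106). Tmem176b, named for its small adjusted p and not for size, had a difference of 2.73 (adjusted p = 0.00259). Chic2, which fell in S1-32, ranged from 5.93 to 118 CPM (median 28.4) in S1-57 and from 12.4 to 79.1 CPM (median 28.3) in Control-57, overlapping (difference -3.65, adjusted p = 0.0189), a call that ended without mouse 28 (adjusted p = 0.078). The Chic2 call also ended without mice 19 and 75, and the other 3 held there and in each of the 24 fits without 1 library.

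S2-32, exposed without a stop to the same age, shares Control-32 with S1-32 and gave 235 calls (10.7%), 76 higher (3.45%) and 159 lower (7.21%), and from 121 (without Control-32 mouse 75) to 502 (without mouse 74) with single libraries left out, chosen after seeing the data. The acute phase median was 0.19 in S2-32 and 1.60 in S1-32, complement 0.19 and 1.28, and fatty acid oxidation 0.36 and -0.26, with 0.05 for all genes in both. The direct test of S1-32 against S2-32, in which the controls cancel, called 78 genes (3.54%), 31 higher in S1-32 (1.41%) and 47 lower (2.13%), and DESeq2, run here after seeing the data, called 147. The edgeR count was 27 to 74 with single libraries left out. Depth overlapped only at the edge in this comparison, S2-32 libraries holding between 1484484 and 3049702 counts.

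Lcn2 in S2-32 ran from 4.34 to 21.4 CPM (median 12.7), and every S1-32 mouse lay above every S2-32 mouse (log2 fold change 8.47, SE 1.63, adjusted p = 0.00111). Acaa1b spread from 59.2 to 11850 CPM (median 1804) in S2-32, where 6 of 6 S1-32 mice lay below the S2-32 median but only 1 below every S2-32 mouse (log2 fold change -4.90, SE 0.91, adjusted p = 0.00111). Hsd17b11 ran from 802 to 11000 CPM (median 2932) in S2-32, and 5 of 6 S1-32 mice lay below every S2-32 mouse (log2 fold change -2.42, SE 0.46, adjusted p = 0.00111). Cyclin D1 (Ccnd1) ran from 39.3 to 188 CPM (median 95.2) in S2-32, above all S1-32 mice (log2 fold change -2.92, SE 0.58, adjusted p = 0.00125). These 4 calls held in each of the 12 fits without 1 library.

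**Figure D5:**
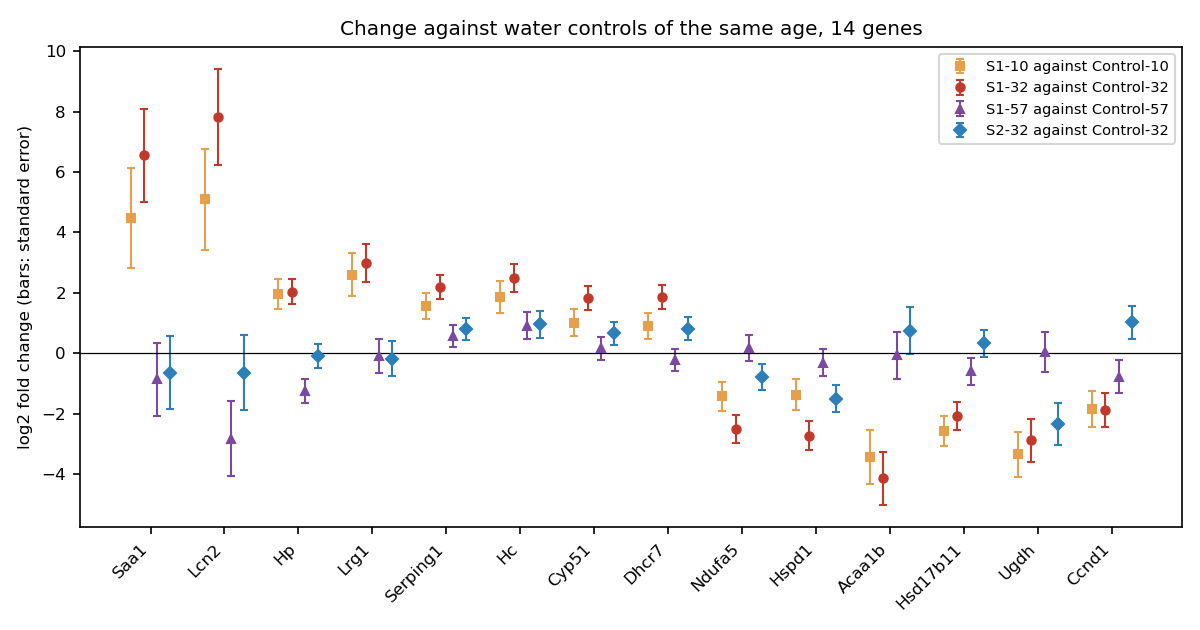
Fitted log2 fold change against water controls of the same age (bars: standard error) of 14 genes in S1-10, S1-32, S1-57 and S2-32; S1-32 and S2-32 share their controls. Saa1, Lcn2, Hp and Lrg1 are positive in S1-10 and S1-32 and negative in S1-57 and S2-32. No S2-32 mouse lay outside the Control-32 range for these genes. Of 6 S2-32 mice, 5 lay above the Control-32 median for Lcn2 and Lrg1, 4 for Saa1 and 3 for Hp. Of 6 S1-57 mice, 3 lay above the Control-57 median for Lcn2 and Lrg1, 1 for Saa1 and 0 for Hp.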

How the data were processed

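Livers of 68 mice in 13 groups were compared by TempO-Seq on the mouse S1500+ panel of 2755 genes. Per the labels and methods, the authors aligned probe reads to mm10 with Bowtie in Partek Flow 10.0.22.0524, and deposited raw counts per gene as integer count tables for 78 libraries. The deposited normalized signal, made by the authors with median-ratio scaling (count plus 1 over 1 factor per library), covers 68 libraries, and their filtered table keeps 2205 genes of it; both served here to choose libraries and genes, and the counts were used for all tests. Tested on the files, the ratio of count plus 1 to the normalized value varied by at most 0.335% within a library.

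Total counts per library ran from 721372 to 3914572 in the 12 compared. Counts were fitted in R 4.3.3 with edgeR 4.0.16 (glmQLFit, TMM factors, 13 groups in 1 fit, no covariate), 2-sided, with Benjamini-Hochberg adjustment over all 2205 genes. DESeq2 1.42.0 was the alternative test. Python 3.11.15 with numpy 2.4.6, pandas 2.3.3, scipy 1.17.1 and matplotlib 3.10.9 made tables and figures. Called means adjusted p at most 0.05 and more than 1.5-fold, and for differences between changes adjusted p at most 0.05. CPM are TMM-scaled. The tests were checked on simulated data, with an outcome that is not reported here. Gene positions are GENCODE vM21 (GRCm38): 2635 panel genes were matched by symbol, 59 by an older symbol and 61 not at all. Promoter windows are RefSeq.

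The members and the 47 gene lists were chosen with earlier results of these data known. Named genes were the 12 largest rises and 12 largest falls with a mean of 20 CPM or more in either group and no overlap, up to 4 called members of each list described with role genes, genes the study's text names, up to 4 with the smallest adjusted p for each difference, and 6 called alike in S1-10 and S1-32. Results for some genes, most of them named by the rule, are not reported here. Alternatives were RLE and upper-quartile factors, TMM without the 50 most abundant genes, other gene filters, all 78 libraries, DESeq2, these groups alone, adjusted p alone, a log2 total covariate, thinning and leaving out each library. Sequencing reads, histology and tumour data were not analysed here.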

Additional observations from a re-analysis of the deposited data

Results flagged for a closer look

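In each group of 6 the highest and lowest library were tested with Dixon's ratio, the gap to the nearest library over the whole range, against its 95% critical value for 6 values. Of 220 groups tested (108 named genes, total counts and genes detected, in S1-32 and Control-32), 40 held a library that far from the others. Chance alone marks about 1 in 20 groups where values follow a normal curve. CPM were tested without taking logs and need not follow such a curve, so that share is only a guide. The marked groups that can be reported here follow. For Sult3a1 in S1-32 the mark is 1 count in mouse 22 and 0 in the other 5, which sets the ratio to 1 whatever the mouse. Mouse 19 of S1-32 was the highest and apart for Khdc4 (98.6 CPM), C1s1 (2048 CPM), Ccdc85b (233 CPM), Cebpa (5848 CPM), Cela2a (345 CPM), Cpa1 (745 CPM), Hsd17b11 (1278 CPM), Ndufa1 (2519 CPM), Rps27l (1776 CPM), Sdhb (1.25 CPM) and Ugdh (5012 CPM), and the lowest and apart for F2 (132 CPM). Mouse 20 of S1-32 was the highest and apart for Glul (1291 CPM), Hmgcs1 (2122 CPM) and Lpgat1 (2714 CPM). Mouse 21 of S1-32 was the highest and apart for Psmb9 (2.18 CPM). Mouse 22 of S1-32 was the highest and apart for Cyp4a14 (31.3 CPM), Sult3a1 (0.329 CPM) and Timp2 (1.318 CPM). Mouse 73 of Control-32 was the highest and apart for Acaa1b (5880 CPM), Ctnnd1 (2594 CPM) and Hsd17b11 (6157 CPM). Mouse 74 of Control-32 was the highest and apart for Col1a1 (111 CPM), Edem1 (808 CPM), Ifitm3 (1024 CPM), Mcur1 (48.9 CPM), Mup15 (2605 CPM), Nr1h4 (167 CPM) and Stat3 (61.4 CPM), and the lowest and apart for Nfkbia (366 CPM). Mouse 75 of Control-32 was the highest and apart for Cfd (41.3 CPM), Scn8a (45.4 CPM), Sdhb (54.2 CPM), Socs3 (87.4 CPM) and Sult3a1 (16.9 CPM). Mouse 76 of Control-32 was the highest and apart for Krt8 (5353 CPM). Mouse 77 of Control-32 was the highest and apart for Lcn2 (84.6 CPM), Lrg1 (1841 CPM) and Saa1 (6935 CPM).

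The named genes below differed between comparisons by a test of the difference itself, in the same edgeR quasi-likelihood fit. The change in S1-32 was more positive than that in S1-57, in log2 units, for C3 (2.31), Dhcr7 (2.08), Hp (3.28), Lcn2 (10.66), Lrg1 (3.08), Saa1 (7.41) and Tmem176b (2.73), and more negative for Khdc4 (-2.71), 2900092D14RIK (-6.10), Acaa1b (-4.08), Chic2 (-3.65), Hspd1 (-2.41), Ndufa5 (-2.68) and Ndufs7 (-2.67). Of the 24 fits without 1 of these libraries, chosen after seeing the data, the call was made in all for Hp, Lcn2, Ndufa5 and Tmem176b, and otherwise for Khdc4 in 22, 2900092D14RIK in 22, Acaa1b in 9, C3 in 20, Chic2 in 23, Dhcr7 in 18, Hspd1 in 12, Lrg1 in 12, Ndufs7 in 15 and Saa1 in 17. The call ended without mice 19 and 75 together for 2900092D14RIK, Acaa1b, Chic2, Dhcr7, Hspd1, Lrg1, Ndufs7 and Saa1. Levels in S1-32 exceeded those in S2-32, again as log2 fold changes, for C1s1 (1.56), Hc (1.53), Hmgcs1 (2.16), Hp (2.12), Lcn2 (8.47), Lrg1 (3.17), Saa1 (7.19), Serping1 (1.38) and Tmem176b (1.39), and lay under them for Acaa1b (-4.90), Acadm (-1.01), Ccnd1 (-2.92), Col1a1 (-2.03), Cycs (-1.02), Cyp4a14 (-9.73), Hsd17b11 (-2.42), Ndufa5 (-1.71) and Pdhx (-1.0). Of the 12 fits without 1 of these libraries, chosen after seeing the data, the call was made in all for Acaa1b, C1s1, Ccnd1, Cyp4a14, Hp, Hsd17b11, Lcn2, Lrg1 and Saa1, and otherwise for Acadm in 2, Col1a1 in 6, Cycs in 2, Hc in 2, Hmgcs1 in 7, Ndufa5 in 9, Pdhx in 1, Serping1 in 8 and Tmem176b in 5. The call ended under upper-quartile scaling for Cycs, and under RLE for Cycs, and after thinning for Cycs, Ndufa5 and Pdhx.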

How the results depend on the processing

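Settings here changed 1 choice at a time, except that DESeq2 replaced the test and the scaling together and that mice 19 and 75 were also left out as a pair. For S1-32 against Control-32 the count of 642 stayed within 1.5 times under RLE (705), upper-quartile scaling (712), TMM without the 50 most abundant genes (662), all panel genes (822 of 2755), filterByExpr (859 of 2697), DESeq2 (847), the 2 groups alone (659), adjusted p alone (645) and thinning to 721372 counts (611). It was 307 with all 78 libraries, 36 with log2 total counts as a covariate, 368 without mice 19 and 75 (chosen after seeing the data), and 372 (without Control-32 mouse 75) to 887 (without mouse 74) with 1 library left out. With the covariate, Col4a1 turned to -0.21 and Ctnnd1 to 0.35; without mice 19 and 75, Cpa1 turned to -3.45 and Socs3 to 0.054; with 1 library left out, Cpa1 ran from -4.14 (without mouse 19) to 5.06 (without mouse 75). The lipoprotein median was -0.23 under upper-quartile scaling. The difference from S1-57 held 138 genes under RLE, 228 under upper-quartile scaling, 265 by DESeq2, 52 after thinning, 11 without mice 19 and 75, and 10 to 201 with 1 library left out. The difference from S1-10 held 15 by DESeq2 and 0 to 16 with 1 library left out. S1-32 against S2-32 gave 147 by DESeq2 and 27 to 74 with 1 library left out. Of the 108 named genes, 76 kept their direction and side of the threshold with all 78 libraries, 34 with the covariate, 102 by DESeq2, 103 under RLE, 97 under upper-quartile scaling and 100 after thinning; 247 called genes (43 higher and 204 lower) were called in the 12 fits without 1 library and in 7 further settings, the covariate not among them. The causes of these shifts were not tested. Depth limits genes of a few CPM in mouse 73, where 721372 counts put 1 count near 1.47 CPM.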

Other observations

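Lists outside the themes above gave the following, against 29.1% called and a median of 0.05 over all genes tested. Major urinary proteins, whose probes may not separate copies, had 1 of 5 called higher (Mup15) and 1 lower in a list of genes named Mup, which leaves out Gm2083, called higher too (median -0.14) and summed from 157549 to 279784 CPM (median 208088) in S1-32 and from 181527 to 901247 CPM (median 491963) in Control-32, with Mup8 at 73.3% of the sum. Proteasome genes had 2 of 19 called higher and 4 lower (median 0.19), and ribosome and translation genes 1 of 14 higher and 4 lower (median -0.04). For p53 targets 1 of 21 was higher and 3 lower (median 0.15), for histones 2 of 11 and 3 (median -0.05), for HIF1A targets 2 of 16 and 3 (median -0.02), and for growth and tumour-associated genes 2 of 21 and 5 (median -0.01). Of 6 circadian genes edgeR called 0 (2 with unadjusted p below 0.05, 2 called by DESeq2; median -0.09).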
